A study of Mus musculus with 40 samples.

Results

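The members described here are 45 mouse genes that drive, copy or restrain the cell cycle, read through H3K27ac, a histone acetylation found at active promoters and enhancers. They are a list of names, out of 21911 protein-coding genes of the mouse annotation. By role they are 8 cyclins and kinases of G1 and S phase, 4 mitotic cyclins and kinases, 6 inhibitors of cyclin-dependent kinases (CDKs), 6 E2F factors, 3 pocket proteins, 8 genes of DNA replication, 7 of mitosis and chromosomes and 3 transcription factors of proliferating cells. The samples were preadipocytes, the fat cell precursors, of inguinal white adipose tissue from C57BL/6 mice, either wild type (WT) or Hmgn1-/- and Hmgn2-/- (DKO), which lack a pair of nucleosome-binding proteins in all tissues. The cells of both genotypes were cultured on collagen-coated plates, grown to confluence, and differentiated with insulin, dexamethasone, IBMX, T3 and rosiglitazone, followed by insulin and T3. H3K27ac ChIP-seq was made from preadipocytes (day 0), from differentiating cells (days 3 and 6) and from brown-like adipocytes (day 9), with 3 libraries per genotype and day and 24 in all. The age and sex of the mice are not in the labels. The paper's methods give an age in weeks for the mice whose preadipocytes were isolated, and its discussion says that its experiments used males. The paper describes its H3K27ac data as coming from 3 biological replicates. Nothing in the labels says whether libraries of a group came from separate animals. The p-values therefore measure the spread between these libraries, part of which may be technical.

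In a cell that enters the cycle, D-type cyclins with Cdk4 and Cdk6 phosphorylate the pocket proteins Rb1, Rbl1 and Rbl2, which releases E2F factors to switch on genes of DNA replication. CDK inhibitors such as Cdkn1a (p21), Cdkn2a (p16 and Arf) and Cdkn2c (p18) oppose these kinases, and cyclin B with Cdk1 later takes the cell into mitosis. Preadipocytes that have reached confluence are largely at rest, and in preadipocyte lines the hormone cocktail is known to let cells divide again for a short time before they leave the cycle as adipocytes. H3K27ac reports the state of the chromatin at a gene, not whether a cell divides.

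Each gene was read from its annotated start to its end with the 5 kb upstream added, and 3 values were taken from each library's own peak list, namely whether a peak was present, how many kb lay under peaks, and the best rank of a peak among all peaks of that list. The lists held 47448 to 115923 peaks. Read totals are not in the lists, so the sequencing depth of a library is not known here, and the kb under peaks depend on it and on the width of the peaks. A pair of libraries stood apart. DKO day 0 replicate 2 had peaks with a median width of 1076 bp where the others had 313 to 376 bp, and its lists covered 96.4 Mb. WT day 3 replicate 3 had a highest fold enrichment over background of 159 where every other library lay between 33.2 and 60.6. Its background, worked out from the fold and p-values of its peaks, was 4.5 reads per kb. The libraries outside this pair had 9.125 to 12.85 reads per kb. Calls of members on the kb of the whole window in the main test are named where they are lost without one of these libraries. Calls at promoters, by rank, in other settings and at further cell cycle genes were not checked in this way.

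The labels were checked against known genes. Hmgn2 had a peak in each of the 12 WT libraries but in 0 of the 12 from DKO cells, and it was called lower in DKO over the 4 days (adjusted p = 0.0190, exact permutation test). Hmgn1 had a peak in all 24 libraries, and whether its window reaches beyond the deleted part was not tested. Over 7 adipocyte markers the summed length under peaks was 10.4 to 27.8 kb at day 0 and 52.8 to 88.4 kb at day 9, and over 5 brown adipocyte markers it was 1 to 3.82 kb and 3.56 to 10.98 kb. Ucp1, the defining gene of brown fat, had no peak in any library. Over 6 preadipocyte markers the sum was 28.1 to 50.9 kb at day 0 and 31.0 to 36.7 kb at day 9. Peaks at 5 macrophage and leukocyte markers summed to 28.7 to 64.8 kb at day 0 and 9.86 to 19.6 kb at day 9, and those at 4 endothelial markers to 6.62 to 16.1 kb and 2.69 to 5.72 kb. The 4 epithelial and muscle markers had no peak in any library. Some sums also parted the genotypes. DKO had the larger leukocyte sums at day 0 (33.8 to 64.8 kb, WT 28.7 to 30.7 kb). This held at day 9 (16.4 to 19.6 kb, WT 9.86 to 12.15 kb), but ranges overlapped at days 3 and 6. Adipocyte sums were larger in DKO at day 9 (82.9 to 88.4 kb, WT 52.8 to 62.6 kb) and smaller at day 6. They were also larger at day 0 (12.99 to 27.8 kb, WT 10.4 to 12.74 kb). Brown adipocyte sums were larger in DKO at day 9 (9.02 to 10.98 kb, WT 3.56 to 5.61 kb) and smaller at day 3. Endothelial sums were larger in DKO at day 0 (7.36 to 16.1 kb, WT 6.62 to 7.27 kb) and smaller at day 6. Preadipocyte sums were smaller in DKO at day 6 (10.6 to 15.65 kb, WT 32.5 to 33.0 kb) and overlapped at the other days. Comparisons of days and of genotypes below are made in cultures in which these other markers differed too, and their part was not tested. In bulk samples fewer cells of a type and less acetylation per cell cannot be told apart.

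Promoter sequences show what many members share apart from their names. RefSeq promoters of build GRCm38.p6, each 300 bases with 250 before the start and 50 from it on, were at hand for 34 of the 45 members. Promoters of Ccnd1, Ccnd2, Ccne2, Ccna2, Cdkn1c, E2f4, Rb1, Mcm4, Aurkb, Foxm1 and Myc were not searched. They were searched on both strands for 4 words bound by E2F factors (TTTCCCGC, TTTGGCGC, TTTCGCGC and TTTGCCGC), for the cell cycle homology region known from mitotic genes (TTTGAA or TTCGAA), for the CCAAT box and for the Sp1 word GGGCGG. The E2F words of different spelling can overlap each other. An E2F word stood in 12 of the 34 promoters (35.3%) against 3.32% of 16522 protein-coding genes with a promoter. The homology region stood in 15 (44.1% against 19.4%), the CCAAT box in 24 (70.6% against 42.1%) and the Sp1 word in 30 (88.2% against 51.0%). Among 8063 genes with a promoter peak in all libraries the shares were 4.97, 15.7, 43.2 and 71.5%, in the same order. Of 21 such members 8, 9, 13 and 18 held the match. The E2F word and the homology region were spread unevenly over the roles, with no test made. E2F words stood in 5 of 7 replication promoters (Mcm3, Mcm5, Mcm6, Mcm7 and Cdc6) and in 0 of 6 mitosis promoters, while the homology region stood in all 6 mitosis promoters (Mki67, Top2a, Plk1, Aurka, Bub1 and Cdc20) and in 2 of the 7 replication promoters (Mcm2 and Mcm7). CCAAT boxes stood in 6 promoters of either class. A match is a stretch of letters and not a bound site.

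The 5 promoters below stand for these classes. They are E2f2 and E2f3, which carry E2F words, Mki67 with the homology region, and Mcm5 and Ccnb1. Over the whole gene window the first 3 lost H3K27ac between day 0 and day 9 and the other 2 did not pass the test, and within 1 kb of starts Mki67 alone of the 5 passed. Capitals mark E2F words, the homology region and CCAAT boxes on either strand, and each sequence runs 5′ to 3′ along its gene. The first of a pair of E2f2 entries lies at chr4:136172024-136172323 on the plus strand, E2f3 at chr13:29986014-29986313 on the minus strand, Mki67 at chr7:135716330-135716629 on the minus strand, Mcm5 at chr8:75109259-75109558 on the plus strand and Ccnb1 at chr13:100786437-100786736 on the minus strand.
E2f2: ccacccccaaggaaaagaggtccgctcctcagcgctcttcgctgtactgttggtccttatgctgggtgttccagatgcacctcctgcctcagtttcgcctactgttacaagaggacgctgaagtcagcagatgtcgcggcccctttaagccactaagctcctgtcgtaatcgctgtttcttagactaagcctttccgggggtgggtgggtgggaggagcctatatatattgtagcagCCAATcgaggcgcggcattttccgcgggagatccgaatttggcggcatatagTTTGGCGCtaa
E2f3: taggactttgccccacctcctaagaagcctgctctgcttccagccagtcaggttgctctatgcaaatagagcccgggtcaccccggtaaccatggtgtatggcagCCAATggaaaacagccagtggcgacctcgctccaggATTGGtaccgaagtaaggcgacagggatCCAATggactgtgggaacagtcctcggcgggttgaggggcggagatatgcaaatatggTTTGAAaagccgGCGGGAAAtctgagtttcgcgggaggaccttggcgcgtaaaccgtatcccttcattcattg
Mki67: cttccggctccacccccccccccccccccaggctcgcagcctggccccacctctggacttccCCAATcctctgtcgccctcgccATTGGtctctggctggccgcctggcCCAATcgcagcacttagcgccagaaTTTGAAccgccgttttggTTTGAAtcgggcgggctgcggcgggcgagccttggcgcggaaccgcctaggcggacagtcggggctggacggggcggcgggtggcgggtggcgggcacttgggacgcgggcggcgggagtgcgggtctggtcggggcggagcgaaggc
Mcm5: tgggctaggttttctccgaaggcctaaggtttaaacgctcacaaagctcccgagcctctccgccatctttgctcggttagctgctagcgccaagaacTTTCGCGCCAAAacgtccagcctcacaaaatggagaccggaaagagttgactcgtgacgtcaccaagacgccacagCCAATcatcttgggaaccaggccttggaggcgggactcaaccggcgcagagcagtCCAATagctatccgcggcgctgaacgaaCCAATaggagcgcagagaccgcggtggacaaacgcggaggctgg
Ccnb1: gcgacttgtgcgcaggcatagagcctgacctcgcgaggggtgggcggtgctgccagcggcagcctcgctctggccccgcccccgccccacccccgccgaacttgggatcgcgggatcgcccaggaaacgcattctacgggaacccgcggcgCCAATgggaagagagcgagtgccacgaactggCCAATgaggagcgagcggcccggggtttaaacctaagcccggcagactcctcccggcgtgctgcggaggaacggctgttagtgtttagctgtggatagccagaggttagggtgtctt

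Most members carried H3K27ac in every sample. A peak lay in the window of 32 of the 45 members in all 24 libraries, of 7 in 20 to 23 libraries, of 5 in 3 to 19 and of 1 in 1 or 2 libraries. The 5 were Bub1 (18 libraries), Mcm3 (19), E2f7 (12), Mybl2 (9) and Ccnb2 (6). Cdkn1c (p57, an imprinted CDK inhibitor) had a peak in 2 libraries and was not tested, which left 44 members among the 15183 genes with a peak in at least 3 libraries. Of these 15183 genes, 73.5% had a peak in all libraries. Peaks within 1 kb of a transcript start were found in all libraries for 30 members. In 10 windows another protein-coding gene also starts (Taf8 at Ccnd3, March9 at Cdk4, Pmel at Cdk2, Exoc3l at E2f4, Lpar6 at Rb1, Tpra1 at Mcm2, Prkdc at Mcm4, Ap4m1 at Mcm7, Cstf1 at Aurka, and Gm44596, Rhno1 and Tex52 at Foxm1), and a peak there cannot be given to either gene. In a single library 33 to 44 members had a peak, with the lowest counts of 38, 37 and 33 in DKO at day 6, where 85.0, 85.8 and 77.9% of all genes tested had a peak (84.4 to 94.4% in the other libraries).

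**Figure D1:**
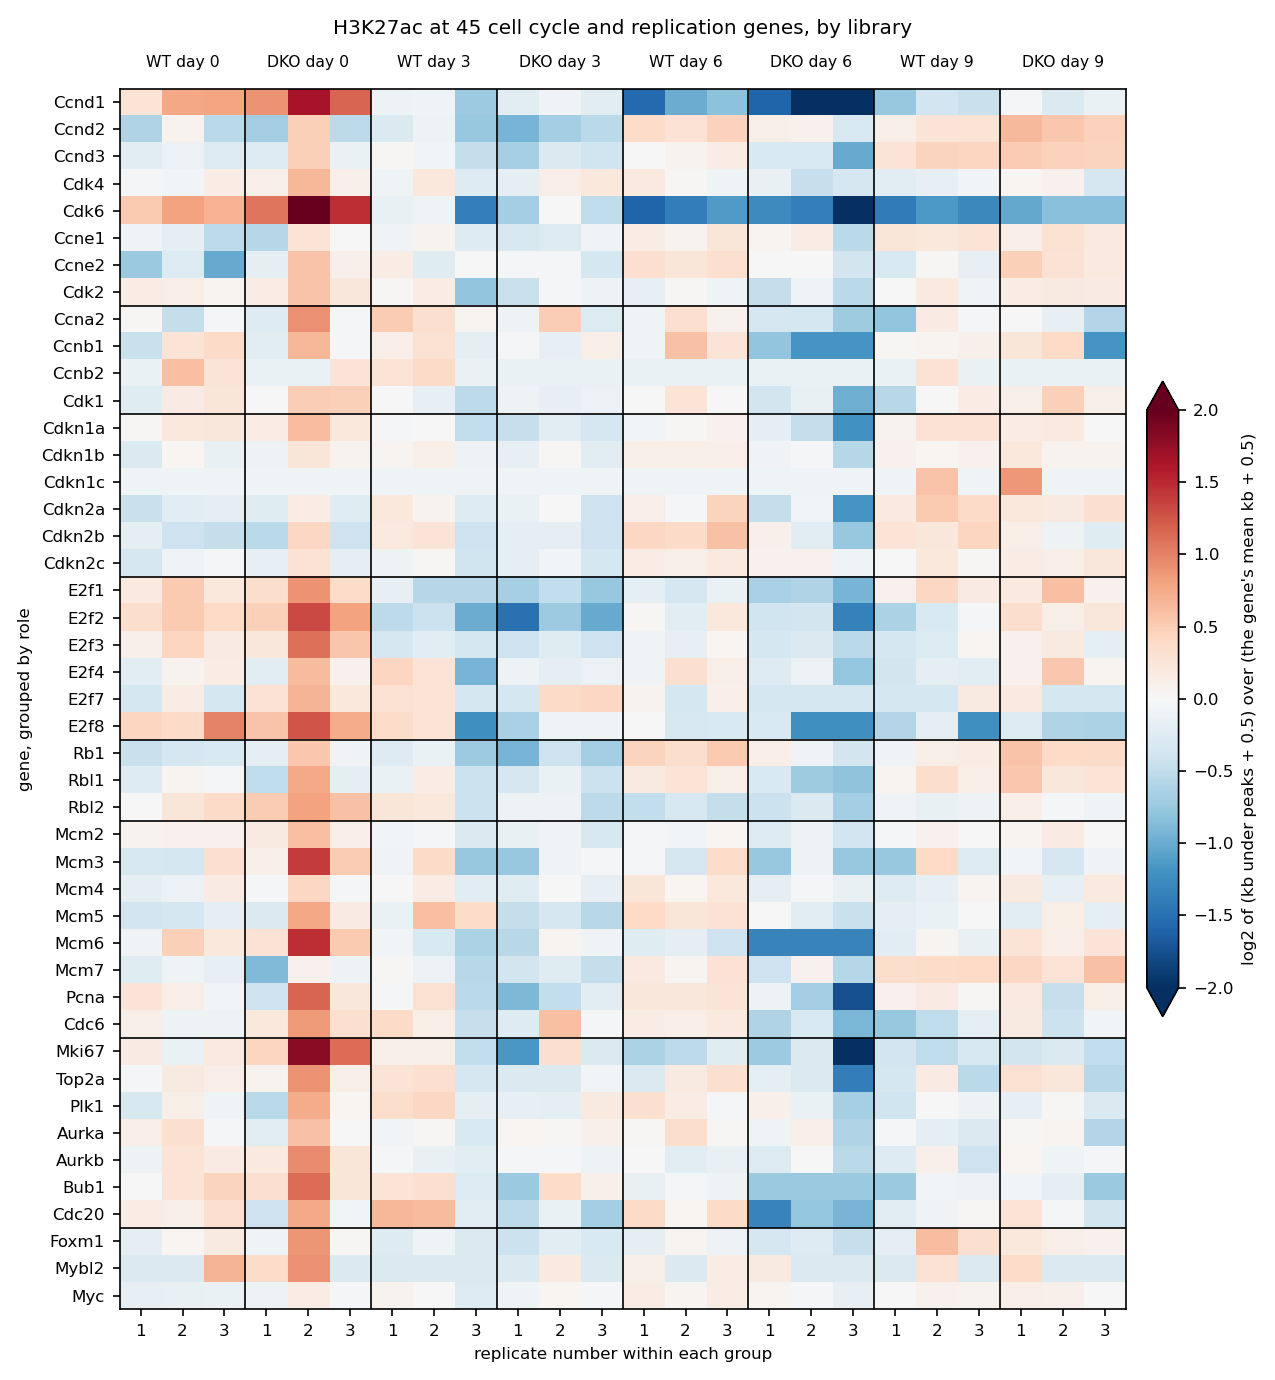
H3K27ac at each member's window, with 45 genes in rows grouped by role and 24 libraries in columns grouped by day and genotype. Colour shows log2 of (kb under peaks + 0.5) over (the gene's mean kb + 0.5). Red lies above the gene's own mean and blue below it. At Cdk6 and Ccnd1 every day 0 library lay above every later library. The DKO libraries of day 6 had peaks at the fewest members, 38, 37 and 33.

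The main question was what happened to these genes between preadipocytes and brown-like adipocytes. From day 0 to day 9 the kb under peaks fell at 11 members and rose at 5, and 28 did not pass the test. The genes that fell were Ccnd1, Cdk4 and Cdk6 of G1, E2f2, E2f3 and E2f8, the pocket protein gene Rbl2, the replication gene Cdc6, and the mitosis genes Mki67, Aurkb and Bub1. Those that rose were the cyclin genes Ccnd2, Ccnd3 and Ccne1, the inhibitor gene Cdkn2a and the helicase gene Mcm7. Over all genes tested 14.8% fell and 16.4% rose, and the median difference was −0.24 kb over the 44 members and 0.04 kb over all genes. The test was an exact two-sided permutation test of day within genotype with Benjamini-Hochberg adjustment over 15183 genes and a threshold of 0.05. This exact test has 400 relabellings and cannot go below p = 0.005. Without DKO day 0 replicate 2, the library with wide peaks, 11 members rose and 10 fell (30.9% and 14.5% of all genes, all-gene median 0.17 kb), with Ccne2, Cdkn2b, Cdkn2c, Rb1, Rbl1 and Myc added to the first group and Cdk4 lost from the second. When each list was cut to its 20000 strongest peaks and each peak set to 250 bp either side of its summit, no gene of the whole table passed (smallest adjusted p 0.0783, 1858 of 12001 genes at an unadjusted p under 0.05), so no member did. With the width of peaks alone set this way Cdk6 fell and Cdkn2a and Rbl1 rose (4.11% and 10.8% of all genes).

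Measured in kb, Cdk6, the G1 kinase that partners the D-type cyclins, showed the largest difference of any member from day 0 to day 9. By best rank E2f8 and Bub1 fell further, with a library that had no peak set to rank 0. The window of Cdk6 spans 194.5 kb on chromosome 5 (gene at 3341485 to 3531008, plus strand). Before differentiation peaks covered 14.98, 18.4 and 17.01 kb in the 3 WT libraries and 22.2, 50.9 and 29.6 kb in the 3 DKO libraries. By day 3 the lengths were 9.198, 9.69 and 3.69 kb (WT) and 6.24, 10.2 and 7.07 kb (DKO). WT means went from 16.8 kb to 7.53 kb, or to 9.44 kb without WT day 3 replicate 3, and DKO means from 34.2 kb (25.9 kb without replicate 2) to 7.85 kb. By day 6 they were 3.05, 3.66 and 4.44 kb (WT) and 3.98, 3.67 and 1.45 kb (DKO), and by day 9 3.61, 4.36 and 3.94 kb (WT) and 4.803, 5.57 and 5.54 kb (DKO). Every day 0 library lay above every library of days 3, 6 and 9. The mean over genotypes fell by 20.9 kb from day 0 to day 9 (adjusted p = 0.0203), and by 16.7 kb without DKO day 0 replicate 2 (adjusted p = 0.0156). Its drop passed in 16 of 17 other settings, with an adjusted p of at most 0.0783. The 17 include leaving out WT day 3 replicate 3, although day 9 against day 0 uses no library of day 3. Leaving out both libraries that stood apart is then the same as leaving out DKO day 0 replicate 2. This holds for each count out of 17 settings given for these days. Cdk6 alone set much of the members' total. The members' share of all kb under peaks at tested genes was 0.282 to 0.308% at day 0 and 0.238 to 0.256% at day 9, and without Cdk6 it was 0.237 to 0.253% and 0.230 to 0.247%, ranges that overlap.

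Ccnd1 encodes cyclin D1, the cyclin most closely tied to growth factor signals. Its window of 15.0 kb lies on chromosome 7 (gene at 144929931 to 144939925, minus strand). Peaks covered 3.98, 5.799 and 5.86 kb in WT preadipocytes and 6.42, 11.1 and 7.77 kb in DKO preadipocytes. The values were 2.93, 2.97 and 1.74 kb (WT) and 2.69, 3.03 and 2.66 kb (DKO) by day 3. By day 6 they were 0.758, 1.36 and 1.59 kb (WT) and 0.722, 0.428 and 0.181 kb (DKO), the lowest of the course. By day 9 they were 1.68, 2.34 and 2.21 kb (WT) and 3.09, 2.54 and 2.86 kb (DKO), above all libraries of day 6 but below every day 0 library. The length fell by 4.37 kb from day 0 to day 9 (adjusted p = 0.0203), and the best-ranked peak of Ccnd1 moved down by 19.7 percentile points within its list (adjusted p = 0.0278). Of 17 other settings 15 called the drop in kb.

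The other D-type cyclins went the opposite way. Ccnd2 had 3.77, 6.36 and 3.99 kb (WT) and 3.49, 8.51 and 4.001 kb (DKO) before differentiation, and 6.56, 7.28 and 7.39 kb (WT) and 9.64, 8.92 and 8.43 kb (DKO) after 9 days. Ccnd3, the D-type cyclin found in many differentiated cells, had 12.5, 13.4 and 11.9 kb under peaks in WT preadipocytes and 11.9, 20.4 and 13.3 kb in their DKO counterparts, against 17.5, 20.01 and 19.7 kb in WT adipocytes of day 9 and 20.8, 20.2 and 20.05 kb in DKO adipocytes. Both rose, by 3.02 kb (adjusted p = 0.0352) and 5.80 kb (adjusted p = 0.0481), although in each gene DKO day 0 replicate 2 reached into the day 9 values, as it did at Ccne1. WT alone did not overlap between the days for either gene. Ccne1, the S phase partner of Cdk2, had 1.53, 1.38 and 0.989 kb (WT) and 0.943, 2.09 and 1.65 kb (DKO) before differentiation, and 2.03, 1.99 and 2.11 kb (WT) and 1.87, 2.15 and 1.97 kb (DKO) after 9 days, and rose by 0.59 kb (adjusted p = 0.0481). The calls of Ccnd2, Ccnd3 and Ccne1 were kept in 9, 8 and 7 of 17 other settings, with adjusted p-values up to 0.358, 0.418 and 0.931. Cdk4, which shares the work of Cdk6, fell by 0.42 kb (adjusted p = 0.0203), a call kept in 3 of 17 settings and lost without DKO day 0 replicate 2 (−0.24 kb, adjusted p = 0.0987), and Cdk2 and Ccne2 did not pass.

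**Figure D2:**
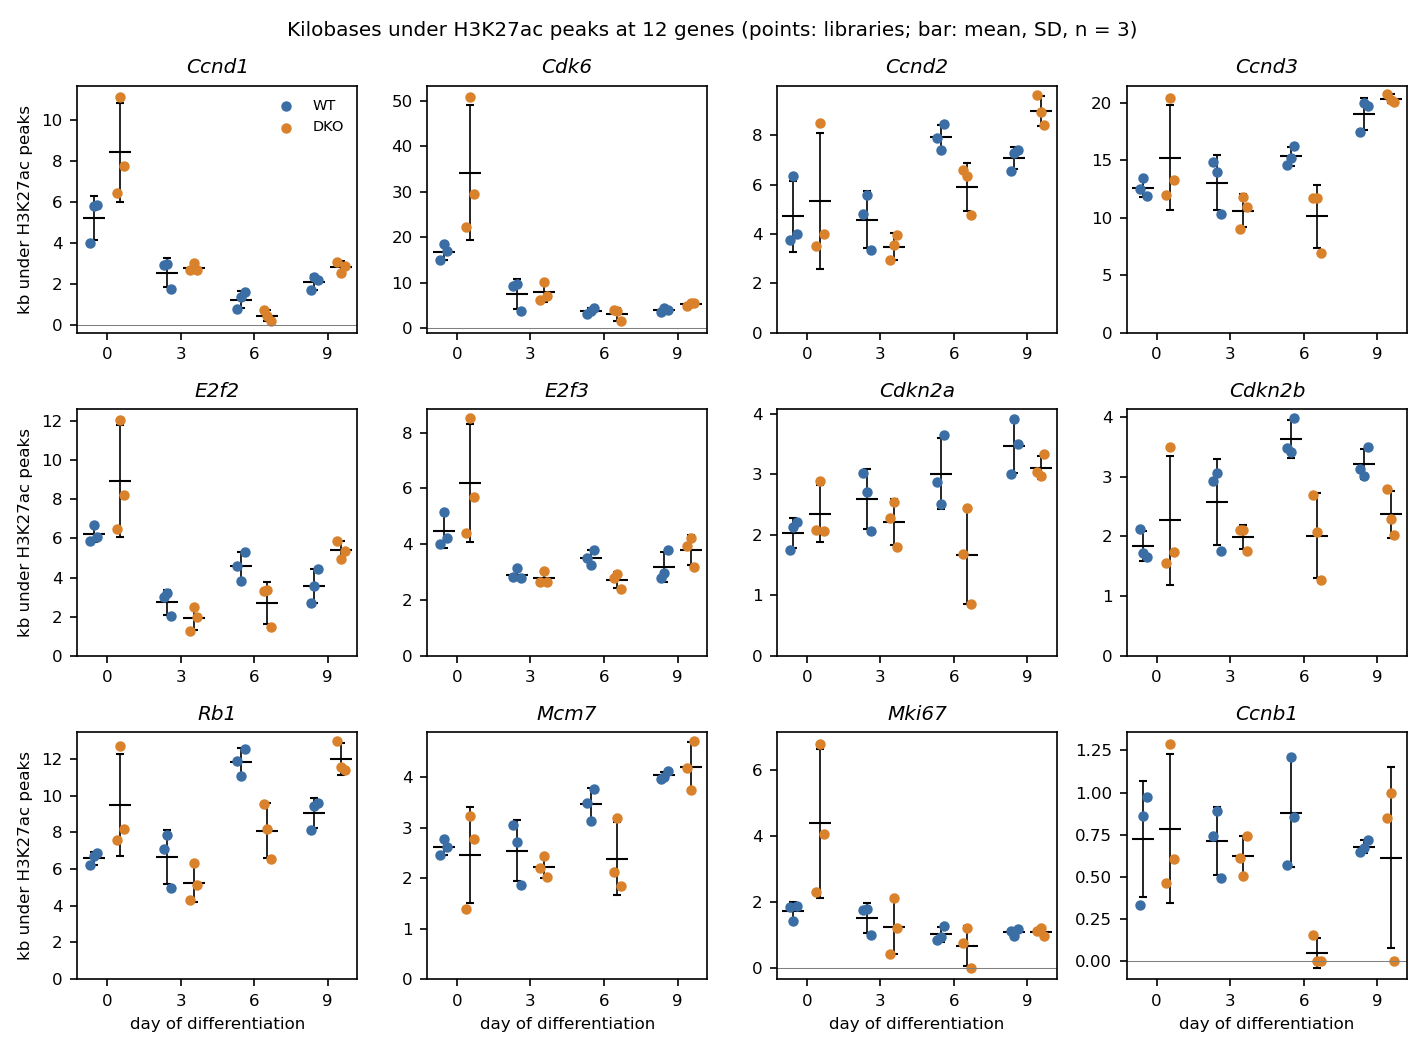
Kb under H3K27ac peaks at 12 members over days 0, 3, 6 and 9, with 1 point per library and genotypes in separate colours. A short bar marks the mean of each WT or DKO group, with its SD (n = 3 each). Cdk6 and Ccnd1 were highest at day 0 in every library, while Ccnd2, Ccnd3 and Mcm7 had higher means at day 9 than at day 0.

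Among the E2F factors, the 3 that fell were E2f2 and E2f3, activators of S phase genes, and E2f8, a repressor that is itself made in S phase. E2f2 had day 0 lengths of 5.88, 6.71 and 6.09 kb (WT) and 6.46, 12.1 and 8.22 kb (DKO) and day 9 lengths of 2.72, 3.55 and 4.42 kb (WT) and 5.88, 4.94 and 5.38 kb (DKO). E2f3 had 4.02, 5.17 and 4.22 kb under peaks in WT preadipocytes and 4.397, 8.53 and 5.69 kb in their DKO counterparts, against 2.79, 2.99 and 3.81 kb in WT adipocytes of day 9 and 3.95, 4.24 and 3.19 kb in DKO adipocytes. E2f8 had 1.08, 1.02 and 1.83 kb (WT) and 1.23, 2.28 and 1.45 kb (DKO) before differentiation, and 0.282, 0.527 and 0 kb (WT) and 0.461, 0.266 and 0.256 kb (DKO) after 9 days. In each of the 3 genes and in either genotype every day 9 library lay below every day 0 library. E2f2 fell by 3.09 kb, E2f3 fell by 1.85 kb and E2f8 fell by 1.182 kb (adjusted p = 0.0203 for each). E2f1, the best known activator, started at 3.26, 4.24 and 3.3 kb (WT) and 3.701, 5.64 and 3.72 kb (DKO), fell to 2.43, 1.73 and 1.73 kb (WT) and 1.58, 1.83 and 1.44 kb (DKO) by day 3 (adjusted p = 0.0235), and stood at 2.97, 3.895 and 3.18 kb (WT) and 3.28, 4.51 and 3.01 kb (DKO) by day 9. Its day 9 and day 0 values overlapped (adjusted p = 0.466). E2f4, the repressive E2F of resting cells, and E2f7 did not pass either.

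The pocket proteins did not move together. Rbl2 (p130), the pocket protein most abundant in resting cells, had day 0 lengths of 1.71, 2.09 and 2.37 kb (WT) and 2.61, 3.35 and 2.79 kb (DKO) and day 9 lengths of 1.598, 1.48 and 1.54 kb (WT) and 1.91, 1.63 and 1.56 kb (DKO), and fell by 0.87 kb (adjusted p = 0.0203). By best rank the same gene moved up by 7.68 percentile points (adjusted p = 0.0278), so its kb and its best rank moved in opposite directions. Rb1, the retinoblastoma gene, had 6.198, 6.68 and 6.89 kb under peaks in WT preadipocytes and 7.56, 12.7 and 8.201 kb in their DKO counterparts, against 8.14, 9.41 and 9.602 kb in WT adipocytes of day 9 and 13, 11.5 and 11.4 kb in DKO adipocytes. Its difference of 2.48 kb did not pass (adjusted p = 0.0584) but did without DKO day 0 replicate 2 (3.28 kb, adjusted p = 0.0156), and over 17 other settings its adjusted p ran up to 0.659. Rbl1 (p107), an E2F target itself, had 2.002, 2.6 and 2.43 kb (WT) and 1.61, 4.55 and 2.12 kb (DKO) before differentiation, and 2.604, 3.32 and 2.798 kb (WT) and 3.87, 3.02 and 3.12 kb (DKO) after 9 days and did not pass (adjusted p = 0.413).

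Of the CDK inhibitors, only Cdkn2a passed among the 5 tested. Cdkn2a, the p16 and Arf gene of senescent cells, had day 0 lengths of 1.75, 2.13 and 2.21 kb (WT) and 2.08, 2.88 and 2.07 kb (DKO) and day 9 lengths of 3.001, 3.905 and 3.49 kb (WT) and 3.03, 2.96 and 3.33 kb (DKO). Within each genotype the days did not overlap, and the length rose by 1.098 kb (adjusted p = 0.0203). Its neighbour Cdkn2b (p15) had 2.13, 1.73 and 1.66 kb under peaks in WT preadipocytes and 1.56, 3.497 and 1.74 kb in their DKO counterparts, against 3.12, 3.01 and 3.499 kb in WT adipocytes of day 9 and 2.79, 2.29 and 2.02 kb in DKO adipocytes (adjusted p = 0.200). Cdkn2c (p18), known to rise as fat cells mature, had 4.71, 5.74 and 5.91 kb (WT) and 5.36, 7.58 and 5.34 kb (DKO) before differentiation, and 6.13, 7.09 and 6.22 kb (WT) and 6.78, 6.72 and 7.21 kb (DKO) after 9 days (adjusted p = 0.175). WT libraries of day 9 lay above those of day 0 for Cdkn2b and Cdkn2c, and DKO libraries overlapped. Cdkn1a (p21) started at 5.35, 6.19 and 6.27 kb (WT) and 5.93, 8.32 and 6.15 kb (DKO), fell by 2.02 kb to 5.09, 5.22 and 3.59 kb (WT) and 3.67, 4.49 and 4.06 kb (DKO) by day 3 (adjusted p = 0.0235), and reached 5.56, 6.58 and 6.54 kb (WT) and 5.87, 6.13 and 5.29 kb (DKO) by day 9, which overlapped day 0 (adjusted p = 0.715). Cdkn1b (p27), the inhibitor of resting cells, did not pass in any comparison.

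Of the 8 replication genes, Mcm7 rose, Cdc6 fell and 6 did not pass. Mcm7, a subunit of the replicative helicase whose window also holds the start of Ap4m1, had day 0 lengths of 2.46, 2.78 and 2.61 kb (WT) and 1.39, 3.22 and 2.77 kb (DKO) and day 9 lengths of 3.97, 4.01 and 4.12 kb (WT) and 4.17, 3.73 and 4.72 kb (DKO). Every day 9 library lay above every day 0 library and the length rose by 1.58 kb (adjusted p = 0.0203), a call that 13 of 17 other settings kept. Cdc6, which loads that helicase onto origins, had 2.52, 2.12 and 2.095 kb under peaks in WT preadipocytes and 2.71, 4.55 and 2.97 kb in their DKO counterparts, against 1.15, 1.45 and 1.98 kb in WT adipocytes of day 9 and 2.68, 1.57 and 2.19 kb in DKO adipocytes, and fell by 0.99 kb (adjusted p = 0.0203). Its promoter had a peak in 12 of 24 libraries, although its window had one in all of them. Mcm2 had 2.89, 2.94 and 2.95 kb (WT) and 3.16, 4.396 and 3.05 kb (DKO) before differentiation, and 2.65, 2.93 and 2.73 kb (WT) and 2.85, 3.13 and 2.76 kb (DKO) after 9 days (adjusted p = 0.0920). Pcna, the clamp that holds the polymerase on DNA, had day 0 lengths of 1.54, 1.36 and 1.13 kb (WT) and 0.778, 3.29 and 1.48 kb (DKO) and day 9 lengths of 1.31, 1.399 and 1.23 kb (WT) and 1.44, 0.734 and 1.34 kb (DKO) (adjusted p = 0.623). Both genes overlapped between the days. Mcm3, Mcm4, Mcm5 and Mcm6 did not pass.

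Of the 7 mitosis genes 3 fell, and of the 4 mitotic cyclins and kinases none passed. Mki67, which codes for the proliferation antigen Ki-67, had 1.84, 1.403 and 1.89 kb under peaks in WT preadipocytes and 2.29, 6.78 and 4.04 kb in their DKO counterparts, against 1.102, 0.96 and 1.17 kb in WT adipocytes of day 9 and 1.12, 1.196 and 0.978 kb in DKO adipocytes, with every day 9 library below every day 0 library, and fell by 1.95 kb (adjusted p = 0.0203) or by 1.35 kb without DKO day 0 replicate 2 (adjusted p = 0.0156), with adjusted p-values up to 0.274 in other settings. Bub1, a spindle checkpoint kinase, fell by 0.45 kb (adjusted p = 0.0203) and Aurkb, a chromosome segregation kinase, by 0.73 kb (adjusted p = 0.0481), or −0.44 kb without DKO day 0 replicate 2 (adjusted p = 0.0441). Top2a, Plk1, Aurka and Cdc20 did not pass. Ccnb1, the cyclin of mitotic entry, had 0.336, 0.864 and 0.976 kb (WT) and 0.464, 1.29 and 0.606 kb (DKO) before differentiation, and 0.647, 0.673 and 0.72 kb (WT) and 0.847, 0.999 and 0 kb (DKO) after 9 days (adjusted p = 0.801). Its kinase Cdk1 had day 0 lengths of 1.66, 2.34 and 2.51 kb (WT) and 2.02, 3.07 and 3.03 kb (DKO) and day 9 lengths of 1.23, 2.03 and 2.33 kb (WT) and 2.25, 3.03 and 2.26 kb (DKO) (adjusted p = 0.555). In both genes the spread among libraries of a day was wider than the difference between days. The transcription factor Myc, a driver of growth, had 5.14, 5.19 and 5.23 kb under peaks in WT preadipocytes and 5.39, 6.53 and 5.67 kb in their DKO counterparts, against 5.82, 6.204 and 6.17 kb in WT adipocytes of day 9 and 6.43, 6.24 and 5.83 kb in DKO adipocytes (adjusted p = 0.103), and Foxm1 and Mybl2, which serve mitotic genes, did not pass.

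**Figure D3:**
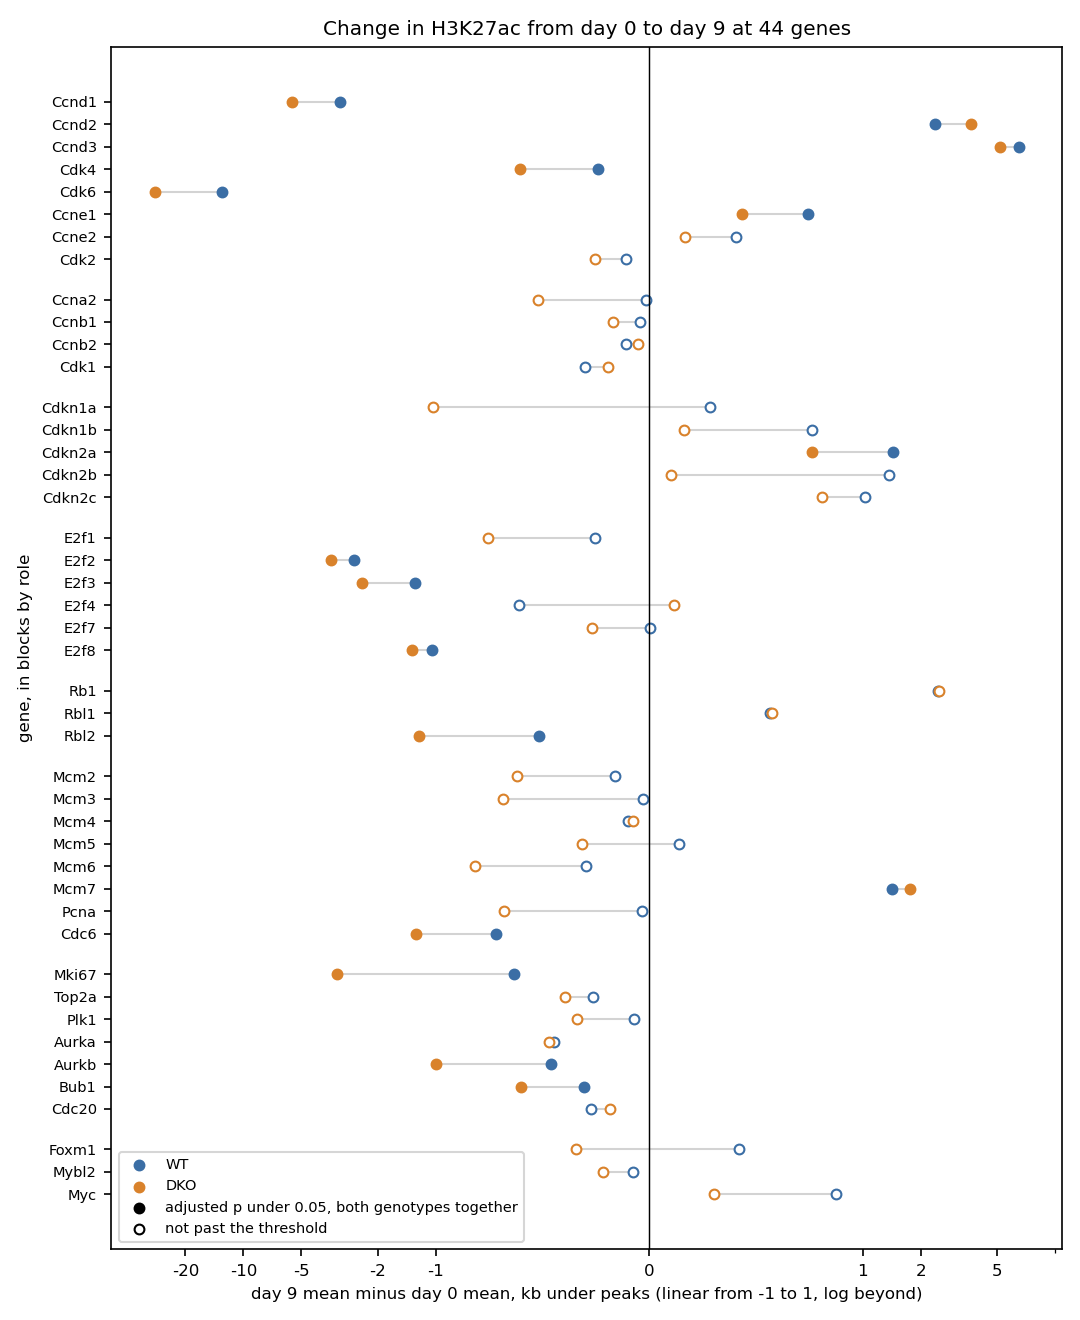
Mean kb under H3K27ac peaks at day 9 minus day 0 for the 44 members tested, in WT and in DKO (n = 3 libraries per genotype and day), with filled points where the test over both genotypes passed. The 5 genes that rose lie right of 0 and the 11 that fell lie left of it, with Cdk6 farthest out.

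Looking at promoters alone gave a shorter list. Within 1 kb of transcript starts 7 members lost H3K27ac between day 0 and day 9 and 2 gained it (7.23% and 6.23% of 13497 genes). Ccnd1 fell by 0.998 kb, Cdk6 by 1.07 kb, E2f1 by 0.37 kb, E2f8 by 0.67 kb, Mki67 by 0.50 kb, Aurka by 0.34 kb and Bub1 by 0.45 kb, while Mcm7 rose by 1.53 kb and Rb1 by 0.50 kb (adjusted p = 0.0371 for each). The fall at E2f2 and E2f3 did not pass there, and Rbl2 and Cdc6 had differences of 0.01 and 0.10 kb in the other direction. Measured by the best rank of a peak, 5 members rose (Ccne2, Cdkn1a, Cdkn2b, Rbl2 and Myc) and 6 fell (Ccnd1, Cdk6, E2f1, E2f8, Cdc6 and Bub1), against 13.9% and 8.84% of all genes. The calls at promoters and by rank were not repeated without DKO day 0 replicate 2, the library with wide peaks. Ccnd1, Cdk6, E2f8 and Bub1 fell by all 3 measures, which read the same peak lists. At day 9 E2f8 had no peak in WT replicate 3, and Bub1 had none in WT replicate 1 and DKO replicate 3. In the other day 9 libraries their highest summits held 13 to 22 reads (E2f8) and 15 to 19 reads (Bub1), worked out from fold and p-values.

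Single stretches of acetylation showed where the length was lost. Peaks of 23 libraries, without DKO day 0 replicate 2, were joined wherever they overlapped, which gave 340 regions in the members' windows. A region was put with day 0 where at least 5 of the 6 libraries of day 0 called it and at most 1 of 6 libraries of day 9 did. There were 25 such regions (7.35%, against 4.20% of 135678 regions at all genes), 8 of the opposite kind for day 9 (2.35% against 4.27%), and 64 called in all libraries (18.8% against 12.4%). The day 0 regions lay over 1 kb from any transcript start in 22 of 25 cases and the day 9 regions in 8 of 8, beside 82.4% and 83.1% of such regions at all genes. Of the 64 constant regions 52 lay within 1 kb of a start, beside 79.1% at all genes. Cdk6 held 13 of the 25 day 0 regions, so neighbouring regions of 1 gene make up much of this count. Ccnd1 and E2f3 held 3 each, and Ccnd3, Rb1, Rbl2, Mki67, Aurkb and Bub1 held 1 each. Day 9 regions lay in Ccnd3 (2), Rb1 (2), Rbl1 (2), Cdkn2a (1) and Myc (1).

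The 13 day 0 regions of Cdk6 ran from its promoter, at −0.29 kb from the start, to 157 kb into the gene, and 12 of them lay in introns. A cluster of 6 stood between 77.7 and 91.5 kb from the start. The region at chr5:3426076-3426829, 85.0 kb into the gene, was called in all 6 day 0 libraries and in no library of days 3, 6 and 9. Its 300 bases around the strongest summit are printed as an example of an intronic stretch called only in the day 0 cultures. They lie at chr5:3426526-3426825 of build GRCm38 on the plus strand, and which cells of the cultures carried the mark was not tested.
Cdk6 intron: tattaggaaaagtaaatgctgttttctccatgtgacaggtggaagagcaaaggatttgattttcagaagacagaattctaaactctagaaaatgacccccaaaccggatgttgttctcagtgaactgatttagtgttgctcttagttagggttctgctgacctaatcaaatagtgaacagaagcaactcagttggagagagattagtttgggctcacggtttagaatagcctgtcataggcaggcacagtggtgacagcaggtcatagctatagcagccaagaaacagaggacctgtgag

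That stretch holds no AP-1 word (TGACTCA or, on the other strand, TGAGTCA), the site of the FOS and JUN factors of proliferating and stressed cells, so it carries no capitals. Among the 22 day 0 regions of members away from promoters 1 held the word (4.55%), beside 5.03% of 4695 day 0 regions and 5.98% of 89253 unclassed regions at all genes.

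**Figure D4:**
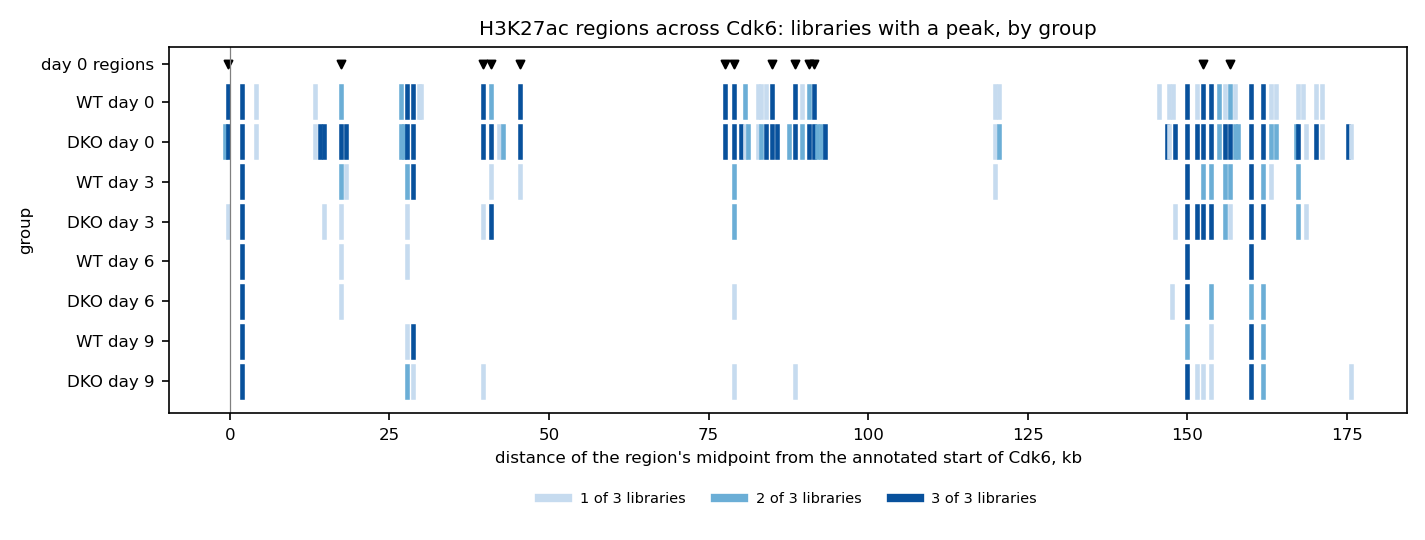
H3K27ac regions along Cdk6 by distance from its start in kb, with the number of libraries (0 to 3) that called each region shown for the 8 groups and triangles at the 13 day 0 regions. Intronic regions called at day 0 in both genotypes were absent from most libraries of days 6 and 9. A peak within 1 kb of a transcript start was called in every library. Peaks there covered 3.26 to 4.52 kb at day 0 and 2.14 to 3.06 kb at day 9.

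Much of the loss at Cdk6 and Ccnd1 was in place by day 3. From day 0 to day 3, while the hormone cocktail was present, 11 members fell and none rose by the exact test. Over all genes 25.2% fell and 1.19% rose, and the medians were close, −0.38 kb for members and −0.39 kb for all genes, so the members' drop was near that of the whole table. Ccnd1 fell by 4.15 kb, Cdk6 fell by 17.8 kb, E2f2 fell by 5.24 kb and E2f3 fell by 2.49 kb. Cdkn1a, E2f1, E2f8, Mcm2, Mcm6, Aurkb and Foxm1 made up the 11, with adjusted p = 0.0235 or 0.0379 each. Without DKO day 0 replicate 2, Mcm6 fell by 0.51 kb in place of 0.81 kb, Aurkb fell by 0.42 kb in place of 0.71 kb, and Foxm1 had −0.33 kb in place of −0.62 kb and did not pass (adjusted p = 0.0527). By unadjusted p under 0.05, 15 members fell and 0 rose (39.1% and 2.4% of all genes), and limma called 15 (43% of all genes lower and 3.47% higher). Without WT day 3 replicate 3 the count was 7 (Ccnd1, Cdk6, Cdkn1a, E2f1, E2f2, E2f3 and Mcm2, beside 20.2% of all genes lower and 1.44% higher), and with 20000 peaks per library 0 genes of the table passed (smallest adjusted p 0.0539).

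The count of genes that moved early was larger in DKO, for members as for all genes. In WT 8 members had every day 3 library below every day 0 library and 3 (Ccne2, Ccna2 and Mcm5) had them above, against 23.7% and 7.04% of all genes. In DKO 20 members lay below and 0 above, against 49.7% and 1.24%. The difference was not tested. Without WT day 3 replicate 3 the WT counts were 8 below and 16 above (24% and 24.5% of all genes), and without DKO day 0 replicate 2 the DKO counts were 20 below and 2 above (50.2% and 4.77%).

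For the later steps the exact test could make no call. At least 1519 of 15183 genes must reach the smallest p of 0.005 before any passes, and 1334 did between days 3 and 6 and 1463 between days 6 and 9, so 0 members and 0 genes passed. Unadjusted, 4 members were higher and 2 lower at day 6 than at day 3, and 13 were higher and 0 lower at day 9 than at day 6. The shares over all genes were 19.2% higher and 5.7% lower in the first step and 30.7% higher and 0.27% lower in the second, so the members lay below or near them. By limma on log2(kb + 0.5), Ccnd2 and Rb1 rose and Ccnd1, Cdk6 and Mcm6 fell between days 3 and 6, and 10 members rose between days 6 and 9 (Ccnd1, Ccnd3, Cdkn1a, Cdkn2a, E2f1, Rbl1, Rbl2, Mcm6, Mcm7 and Foxm1). Limma called 12.7% of all genes higher and 5.93% lower in the first step, and 33.3% higher and 0.422% lower in the second.

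The second question was whether loss of HMGN1 and HMGN2 altered H3K27ac at these genes. Over the 4 days together 0 of 44 members were called by the exact test of genotype within day, beside 0.0263% of all genes higher and 0.125% lower (4 and 19 genes). Unadjusted, Cdk6 was higher in DKO by 4.60 kb (p = 0.0443, exact permutation test) and by 2.52 kb without DKO day 0 replicate 2 (p = 0.0580, exact permutation test). Ccnb2, Cdkn2b and Cdc20 were lower (p = 0.0400, 0.0259 and 0.0218, exact permutation tests), and the adjusted p-values of these 4 genes ran from 0.385 to 0.489. Over all genes 3.95% were higher and 5.91% lower at an unadjusted p under 0.05. Limma called Cdc20, an activator of the mitotic ubiquitin ligase, as lower in DKO (adjusted p = 0.0175), beside 5.43% of all genes lower and 1.19% higher. Without both libraries that stood apart the exact test called Cdkn2b (−0.91 kb, adjusted p = 0.0147) and Cdc20 (−0.56 kb, adjusted p = 0.0315), which is 2 of 44 members beside 4.9% of all genes lower and 0.125% higher. With 250 bp either side of summits it called Cdkn2a (−0.94 kb, adjusted p = 0.0478), beside 1.04% of all genes lower and 0.0132% higher. Over 17 other settings the adjusted p of each of these 3 genes ran up to 1. The change from day 0 to day 9 differed between genotypes at 0 members by the exact test and by limma, with 0 members at an unadjusted p under 0.05 and 47 genes of all at the smallest p where 1519 were needed.

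Day by day the genotypes parted in opposite directions, as the whole table did. With 3 against 3 libraries an exact test of a single gene cannot go below p = 0.1, so the counts below are of members in which the genotypes did not overlap. At day 0 DKO lay above WT for 10 members and below for 0, beside 18.4% and 0.705% of all genes. The 10 were Ccnd1, Cdk6, Ccne2, E2f7, Rb1, Rbl2, Mcm2, Cdc6, Mki67 and Myc. The same 10 lay above without DKO day 0 replicate 2, with Cdc20 below (18.6% and 9.38%). At day 3 Mcm5 alone parted, with DKO below (10.8% of all genes, and 0.863% above). Without WT day 3 replicate 3 that count was 22 members below and 0 above (51.5% and 0.922%). At day 6 DKO lay below WT for 29 members and above for 0 (59.6% and 0.0856%). At day 9 it lay above for 9 members (Ccnd1, Ccnd2, Ccnd3, Cdk6, Ccne2, E2f2, E2f4, Rb1 and Mcm6) and below for Cdkn2b (29.3% and 2.08%). The median DKO minus WT difference over members and over all genes was 0.51 kb (members) and 0.42 kb (all genes) before differentiation, −0.17 and −0.18 kb on day 3, −0.57 and −0.53 kb on day 6, and 0.16 and 0.23 kb on day 9, in the same order. Without DKO day 0 replicate 2 the medians before differentiation were 0.07 kb (members) and 0.05 kb (all genes), and without WT day 3 replicate 3 those of day 3 were −0.42 and −0.33 kb.

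**Figure D5:**
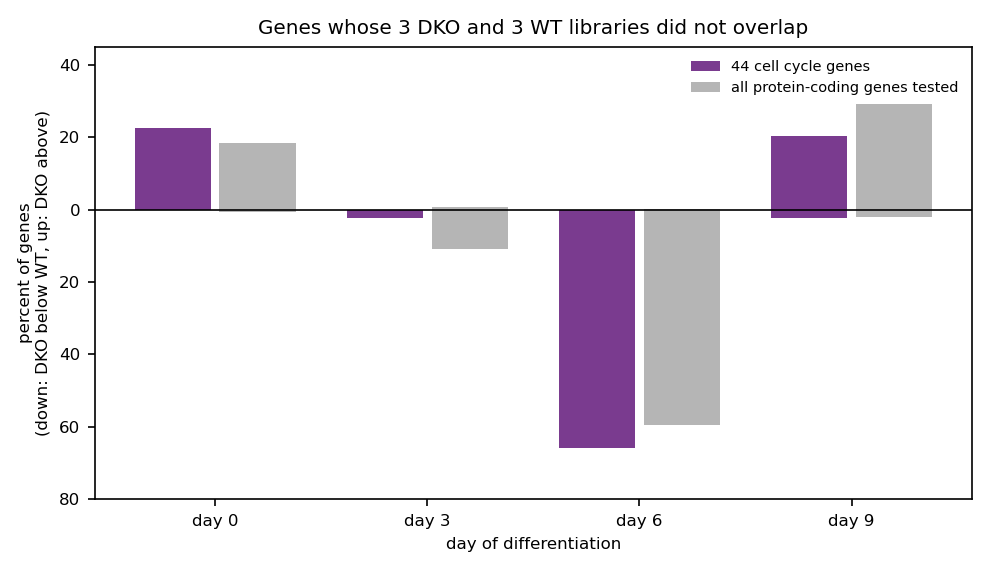
Percent of the 44 members and of all 15183 genes tested in which every DKO library lay above or below every WT library, by day. DKO lay above for 18.4% of all genes at day 0 and 29.3% at day 9 and below for 59.6% at day 6, while for members the counts were 10 and 9 above and 29 below.

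Some genes of the course illustrate the size of these gaps. At day 6 Rb1 had 11.8 ± 0.738 kb (WT) and 8.08 ± 1.49 kb (DKO), and by day 9 it had 9.05 ± 0.795 kb (WT) and 11.98 ± 0.883 kb (DKO), as mean ± SD with n = 3. Ccnd3 went from 15.3 ± 0.851 kb (WT) and 10.1 ± 2.73 kb (DKO) to 19.1 ± 1.38 kb (WT) and 20.4 ± 0.383 kb (DKO). In both genes WT was ahead at day 6 and DKO at day 9. Cdkn2b was the exception at day 9, with 3.21 ± 0.258 kb (WT) and 2.37 ± 0.387 kb (DKO). Bub1 and Mcm6 had no peak in any of the 3 DKO libraries of day 6 and one in all 3 WT libraries of that day. The lists of those DKO libraries held 47448 to 74867 peaks where WT lists of day 6 had 98503 to 105511, and the part of this in the values was not tested.

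Within each genotype the comparison of day 9 with day 0 shared 10 falling genes. In WT 11 members had every day 9 library below every day 0 library and 10 had them above (17.3% and 29.4% of all genes). In DKO 14 lay below and 2, Cdkn2a and Mcm7, above (17% and 15.8%). Ccnd1, Cdk4, Cdk6, E2f2, E2f3, E2f8, Rbl2, Cdc6, Mki67 and Bub1 lay below in both genotypes. In DKO 14 members lay below and 12 above once DKO day 0 replicate 2 was left out (17.2% and 45.4%).

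Other cell cycle genes were read in the same way. A list of 58 further genes (origin licensing, replication forks, spindle and kinetochore, kinase switches, and the MuvB and DP partners of E2F) was tested in the same fits. From day 0 to day 9, 7 rose and 7 fell, from day 0 to day 3, 0 rose and 8 fell, and between genotypes 0 passed. Among all genes 16.4% rose and 14.8% fell by day 9 and 25.2% fell by day 3, so these counts lay near or below the shares of the whole table. The largest falls by day 9 were at Skp2, which marks p27 for destruction (5.15 kb at day 0 and 1.99 kb at day 9, means of 6 libraries), at Gins1 of the helicase (5.53 and 2.93 kb) and at the licensing factor Cdt1 (4.53 and 2.31 kb). Ndc80 and Bub1b of the kinetochore fell as well. The largest rises were at Cdc7, a kinase that fires origins (2.48 and 4.32 kb), at Pkmyt1, which holds Cdk1 inactive (1.15 and 2.56 kb), at the flap nuclease gene Fen1 (1.98 and 3.03 kb), and at Lin52 and Cks2. All of these had adjusted p = 0.0203 except Cdc7 (0.0481). The calls of single further genes were not checked without DKO day 0 replicate 2, which is part of the day 0 means. Cdc45 fell by 2.40 kb at day 3 (adjusted p = 0.0235) and had 4.87 kb at day 9 against 4.22 kb at day 0.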

How the data were processed

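H3K27ac ChIP-seq was read from 24 narrow peak lists of WT and DKO preadipocytes at days 0, 3, 6 and 9 (8 groups, n = 3), grouped by the labels. The 16 input libraries were not used. Per the labels, the authors worked with build mm10 and named bcl2fastq 2.17, cutadapt 1.18, BWA 07.17 and MACS2 2.1.1.20160309. In the deposited lists, which the authors called per library without pooling, each peak carries a fold enrichment, the ratio of its summit to the local background, and a p-value and a q-value as −log10. For the tests these values were used only to rank or filter peaks within a list. The fold and p-values also gave each library's background, which was compared between libraries together with the highest fold. The study tested read counts, which peak lists do not hold, so the kb of each gene's window under peaks (GENCODE M21, build GRCm38) were tested instead.

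Protein-coding genes with a peak in at least 3 libraries (15183 of 21911) entered exact two-sided permutation tests, with genotype relabelled within days (160000 relabellings, smallest p 1.25e-05) or day relabelled within genotypes (400 relabellings, smallest p 0.005). Benjamini-Hochberg adjustment was made over all genes at 0.05. Single days got no test, since 3 against 3 libraries cannot go below 0.1. Limma 3.58.1 on log2(kb + 0.5) was an alternative, as were other peak sets, widths, windows and ranks, replicate blocks and left-out libraries. A percentile rank runs from 0 without a peak to 100. Python 3.11.15 with numpy 2.4.6 and scipy 1.17.1 was used, and the tests were tried on simulated data.

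The members and all lists, motifs and alternatives were chosen with earlier results of these data known. Values per library are given for members past the threshold between genotypes or between days 9 and 0, up to 8 per direction, and always for Ccnd1, Ccnd2, Cdkn1a, Cdkn2a, Cdkn2b, Cdkn2c, E2f1, Mcm2, Pcna, Mki67, Ccnb1, Cdk1, Rb1, Rbl1 and Myc. Of 58 further genes up to 5 per test and direction are named by size.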

Additional observations from a re-analysis of the deposited data

Results flagged for a closer look

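The results below are listed because every library of the groups compared moved one way in one setting and the other way in another. The differences between settings were not tested, and the cause was not tested. The members' counts lay near the shares of all genes, which are given beside them. All values are differences in kb under peaks between group means of 3 libraries.

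The genotypes were apart in opposite directions at days 0 and 6 for 6 members, beside 9.86% of all genes tested. Ccnd1 had a DKO minus WT difference of 3.22 kb in preadipocytes, which was −0.79 kb by day 6. In the same order the values were 0.77 and −0.48 kb for Ccne2, 2.89 and −3.76 kb for Rb1, 0.61 and −0.47 kb for Mcm2, 1.17 and −1.26 kb for Cdc6, and 0.68 and −0.76 kb for Myc. Without DKO day 0 replicate 2, the library with wide peaks, the differences in preadipocytes were 1.88 kb for Ccnd1, 0.51 kb for Ccne2, 1.29 kb for Rb1, 0.18 kb for Mcm2, 0.60 kb for Cdc6 and 0.34 kb for Myc.

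At days 9 and 6 they were apart in opposite directions for 8 members, beside 16.3% of all genes. Ccnd1 had a DKO minus WT difference of 0.75 kb in adipocytes of day 9, after −0.79 kb by day 6. In the same order the values were 1.92 and −2.01 kb for Ccnd2, 1.29 and −5.22 kb for Ccnd3, 0.53 and −0.48 kb for Ccne2, 1.84 and −1.87 kb for E2f2, 1.23 and −1.12 kb for E2f4, 2.93 and −3.76 kb for Rb1, and 0.30 and −0.54 kb for Mcm6. The DKO lists of day 6 held 47448 to 74867 peaks.

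The step from day 6 to day 9 was opposite in WT and DKO for 6 members, beside 10.1% of all genes. It was −0.83 kb in WT and 3.09 kb in DKO for Ccnd2, −0.51 and 0.50 kb for Ccne2, −0.22 and 1.26 kb for Cdkn1b, −0.92 and 1.43 kb for E2f4, −2.79 and 3.90 kb for Rb1, and −0.35 and 0.62 kb for Cdc20. The step from day 0 to day 3 was opposite for Mcm5 alone, at 0.51 kb in WT and −0.57 kb in DKO (0.573% of all genes), or 0.48 kb without WT day 3 replicate 3 and −0.28 kb without DKO day 0 replicate 2. These groups share libraries with the comparisons above.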

How the results depend on the processing

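Kb under peaks rise with depth, peak width and peak number, and the 24 lists differ in all of these. The exact test on 12 libraries moves in coarse steps, so a count of 0 under it says little. Of the values for single genes under other settings, 480 kept their direction and side of the threshold, 157 lost the call, 26 gained one and 42 changed sign, and the cause was not tested. The 480 include values for day 9 against day 0 without WT day 3 replicate 3, which leaves that comparison unchanged. Deviations of same-numbered WT and DKO libraries of a day had correlations of −0.84 to 0.90, and 4 of 12 pairs were over 0.1. With 3 libraries per group these correlations cannot decide whether the numbers mark shared cultures or batches. With a replicate block 0 members were called between genotypes, and with the block in limma 15 at day 3 against 0, 5 at day 6 against 3, 11 at day 9 against 6, 19 at day 9 against 0 and 0 for the genotype difference in change. Of all 15183 genes the block in limma called 557 higher and 6764 lower at day 3 against 0. It called 2020 and 1002 at day 6 against 3, and 5471 and 70 at day 9 against 6. At day 9 against 0 it called 3407 and 2647, and for the difference in change 45 and 43.

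Between genotypes 0 members were called, but 1 with 250 bp either side of summits, 2 without both doubtful libraries and 1 by limma. At day 3 against day 0 the 11 calls became 0 with 20000 peaks, 0 with 250 bp summits, 0 with both, 4 at promoters, 6 in the gene span alone, 2 by rank, 7 without WT day 3 replicate 3, and 8 to 13 by limma with each replicate left out. Where 0 members were called, 0 genes of the table were. Over all genes 1608 were lower and 78 higher of 13497 at promoters, and 3371 and 211 of 14577 in the gene span. By rank 1553 were lower and 270 higher of 15183, and without WT day 3 replicate 3, 3061 and 218. With a replicate left out limma called 3788 to 5578 lower and 287 to 484 higher. At day 6 against day 3, 0 became 5 without WT day 3 replicate 3, without both doubtful libraries and by limma, and 2 to 5 with a replicate left out. Of all 15183 genes 924 were higher and 805 lower without WT day 3 replicate 3, and the same without both. With a replicate left out 844 to 1650 were higher and 413 to 613 lower. At day 9 against day 6, 0 became 10 by limma and 4 to 9 with a replicate left out, where 1812 to 4175 of all 15183 genes were higher and 29 to 47 lower. At day 9 against day 0 the 16 calls became 9 at −log10 q of at least 5, 5 with 20000 peaks, 3 with 250 bp summits, 9 at promoters, 0 with both peak settings, and 10 to 16 with a replicate left out. Over all genes 1972 were higher and 1943 lower of 14855 in the first of these, and 562 and 729 of 12066 in the second. They were 1643 and 624 of 15186 with 250 bp summits, 841 and 976 of 13497 at promoters, and 0 with both peak settings. With a replicate left out 1998 to 3679 of 15183 were higher and 1798 to 2198 lower. Settings that set 20000 peaks together with 250 bp summits, or left out both doubtful libraries, and values of single days without a doubtful library, were chosen after seeing the data.

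These genes changed sign, in kb unless stated. For day 9 minus day 0 at promoters they were Cdc6 0.10, Myc −0.038, Rbl1 −0.14 and Rbl2 0.0087. With 20000 peaks they were Rbl1 −0.40 and Rbl2 0.037. With 20000 peaks and 250 bp summits they were E2f3 0.33, Rbl1 −0.0835 and Rbl2 0.25. With 250 bp summits they were Ccnb1 0.25, Cdc6 0.014, Cdk1 0.69, Cdkn2c −0.80, E2f1 0.67, Mcm2 0.0945 and Pcna 0.0042. By percentile rank they were Cdk4 0.34, Cdkn1a 1.72, E2f3 0.40, Mcm2 0.44, Pcna 0.30, Rb1 −1.13 and Rbl2 7.68 points. In the gene span Cdkn1a had 0.16. Without DKO day 0 replicate 2, and also without both doubtful libraries, Ccnb1 had 0.018, Cdkn1a 0.0049 and Pcna 0.0046, beside −0.11, −0.38 and −0.36 without WT day 3 replicate 3. By limma, log2 values were Pcna 0.10 without replicate 2 and Ccnb1 0.12 without replicate 3. For day 3 minus day 0 they were Aurkb 0.27 and E2f3 0.17 with 20000 peaks and 250 bp summits, Cdkn1a 0.11 and Mcm2 0.15 with 250 bp summits, and E2f3 1.36 and Foxm1 3.61 points by rank. For DKO minus WT they were Cdc20 0.025 with 20000 peaks and 0.13 with 250 bp summits as well, Cdkn2b 0.029 with 250 bp summits, and Cdk6 −1.03 points by rank.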
